A study of Homo sapiens with 4 samples.

Results

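The 10 genes described here are a chosen list of alpha and beta tubulin genes. For alpha tubulin they are TUBA1A, TUBA1B, TUBA1C and TUBA4A. For beta tubulin they are TUBB, TUBB2A, TUBB2B, TUBB3, TUBB4B and TUBB6. They were taken by gene name from a table of 60544 genes, and each name matched 1 row. All 10 passed the filter on low counts, which kept 16802 genes. Other alpha and beta tubulin genes, such as TUBB4A with 1181 to 1408 counts per library, are outside the list and its sums and shares. PC3 is an established human prostate cancer line. The control arm, labelled shNC, and the METTL3 knockdown arm, labelled sh812, had 2 poly(A) RNA libraries each, and sh812 is read as the knockdown because it is the other label. The short hairpin RNA of the knockdown arm carries 1 label, so the arm was taken as 1 hairpin, and the labels do not say whether the replicates were separate cultures. P-values therefore measure the spread between these libraries, which may be technical.

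Alpha and beta tubulin pair into dimers that assemble end to end into microtubules, and the genes of each family encode near-identical proteins that differ mostly in their C-terminal tails. Tubulin mRNAs are autoregulated: when unassembled dimers accumulate, TTC5 binds the first residues of a nascent tubulin chain on the ribosome and, through SCAPER, brings in the CCR4-NOT deadenylase, and the mRNA is degraded. Taxanes, a class of drugs used in advanced prostate cancer, bind beta tubulin, and the class III isotype encoded by TUBB3 is known for its association with taxane resistance. METTL3 is the enzyme that methylates adenosines in mRNA to N6-methyladenosine (m6A).

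The element read by TTC5 lies in the first 4 codons, so the first 30 coding bases of each member are shown, with these 12 bases in capitals. They come from 1 GENCODE 29 transcript per gene (GRCh38).
TUBA1A: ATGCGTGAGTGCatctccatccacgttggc
TUBA1B: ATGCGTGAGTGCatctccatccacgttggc
TUBA1C: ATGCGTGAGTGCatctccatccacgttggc
TUBA4A: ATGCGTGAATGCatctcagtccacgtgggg
TUBB: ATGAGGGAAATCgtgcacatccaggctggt
TUBB4B: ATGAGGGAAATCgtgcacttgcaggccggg
TUBB3: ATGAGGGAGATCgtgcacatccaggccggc
TUBB6: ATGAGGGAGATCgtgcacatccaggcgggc
TUBB2A: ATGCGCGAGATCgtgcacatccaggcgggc
TUBB2B: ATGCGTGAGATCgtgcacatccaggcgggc
The capitals fall into 6 different spellings. The alpha members spell methionine, arginine, glutamate and cysteine, and the beta members end the same start with isoleucine. Of 19532 coding genes examined in the annotation, 10 began with codons for the beta start and 9 with codons for the alpha start, and all of these were tubulin genes.

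The likeness of the genes bears on the counts. Coding sequences were up to 97.19% identical among the alpha members, for TUBA1A with TUBA1B, and up to 98.2% among the beta members, for TUBB2A with TUBB2B. Of all windows of 150 bases in the TUBB2A transcript, 49.4% also occurred in another gene's transcripts, and the share was 39.4% for TUBB2B and 19.1% for TUBA1B. It was 6.91% for TUBA1A, 6.77% for TUBA1C and 2.5% for TUBB, and 0% for TUBB4B, TUBA4A and TUBB6. For TUBB3 it was 88.7%, nearly all from a readthrough gene, AC092143.1, that spans TUBB3 on the same strand and was listed at 0 counts in all 4 libraries. How reads that fit several genes were treated is not given in the sources used here, so TUBB3, TUBB2A and TUBB2B are uncertain, and TUBB3 levels may be too low. On opposite strands, exons of TUBB6 share 837 bases with AFG3L2 and those of TUBA4A share 627 with STK16, and whether counting used strand is not given either. The 51 tubulin pseudogene rows held between 337 and 465 counts per library in all, 0.279% of the members' counts, and 36 of them were at 0 in every library. TUBA5P had the most, with 100 to 138 counts per library, followed by TUBBP1 with 100 to 130 and TUBAP2 with 66 to 114.

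Libraries held from 31450648 to 37041330 counts, and METTL3 fell to 18.7% of its control level (log2 fold change -2.42, SE 0.11, edgeR adjusted p = 5.54e-14). Per library it had 1682 and 1379 counts in shNC and 269 and 313 in sh812. Of 4 epithelial markers, 3 were called higher in sh812 (EPCAM, CDH1 and KRT18), against 5.43% of all genes tested. KRT8 had mean levels of 232 CPM (counts scaled to a common library total) in shNC and 253 in sh812. The summed level of the 4 markers was 440 and 499 CPM in shNC and 551 and 567 CPM in sh812. The prostate secretory genes KLK3 and KLK2 were listed at 0 counts in all libraries, so these luminal markers of the labelled tissue were not detected. TMPRSS2 was called lower (log2 fold change -0.74, edgeR adjusted p = 0.00546). Of 6 markers of other cell types, the T cell gene CD3E was at 0 counts, the endothelial gene CDH5 had 0 to 6 and the leukocyte gene PTPRC 12 to 32. The endothelial gene PECAM1 was called higher (0.59, edgeR adjusted p = 0.000222) and the fibroblast gene COL3A1 lower (-1.51, edgeR adjusted p = 0.00131). The other fibroblast gene, COL1A1, had 1029 to 1426 counts, with means of 38.5 CPM in shNC and 31.9 CPM in sh812. Its log2 fold change of -0.27 was not called (edgeR adjusted p = 0.0589). These 6 summed to between 65.1 and 67.5 CPM in shNC and between 63.8 and 74.9 CPM in sh812. Their part in the tubulin values was not tested.

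TUBB and TUBA1B led their families. Levels between genes are given as CPM per kilobase of all annotated exon bases, as the mean of the shNC libraries. TUBB, the main beta tubulin gene of dividing cells, stood at 533.8 CPM per kb, ahead of TUBB4B at 254.5. Among alpha genes TUBA1B, a broadly expressed isotype, stood at 203.5 and TUBA1C at 120.4. A gap separated these 4 genes from TUBA1A at 29.5, TUBA4A at 24.7, TUBB6 at 22.5 and TUBB2A at 11.4 CPM per kb. TUBB2B, at 1.45, and TUBB3, at 0.30 CPM per kb, were lowest. The shNC values of TUBA4A (23.07 and 26.35 CPM per kb) and TUBB6 (21.75 and 23.17) overlapped, so these neighbours did not differ beyond their spread. With the longest transcript as the length, TUBA1B (447) moved ahead of TUBB4B (328) and TUBB6 (44.8) ahead of TUBA4A (40.3).

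The 10 genes together took 0.385% and 0.413% of the counts of shNC, and 0.442% and 0.432% of those of sh812. Summed alpha tubulin stood at 1413 and 1560 CPM in shNC and at 1671 and 1620 in sh812. Summed beta tubulin stood at 2345 and 2550 CPM in shNC and at 2832 and 2758 in sh812. For both sums the sh812 libraries lay above the shNC libraries, by 10.7% for alpha and 14.2% for beta between means. The beta to alpha ratio, per kb of exon, was 2.20 and 2.16 in shNC and 2.27 and 2.29 in sh812.

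Only TUBB4B among the 10 genes was called, where a call means that edgeR's quasi-likelihood p, adjusted by Benjamini and Hochberg's method over all genes tested, was under 0.05. Over all genes, 10.8% were called (5.43% higher and 5.42% lower), so 1 of 10 is near the background. At an unadjusted p under 0.05 there were 5 members, against 24.8% of all genes. The fitted change was above 0 in 8 members and below 0 in 2, against 8232 and 8570 of all 16802 genes. The members' median log2 fold change was 0.15, against -0.0056 over all genes. In 6 members both sh812 libraries lay above both shNC libraries, and in 1 both lay below; over all genes these shares were 26.2% and 27.4%, or 53.6% in either direction. The count of called members depended on the method, and ran from 1 to 5 over the alternatives that kept all libraries: 5 without a low-count filter, 4 with limma-voom and 3 with DESeq2. Those fits called 6.49%, 11.3% and 8.86% of all genes.

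**Figure D1:**
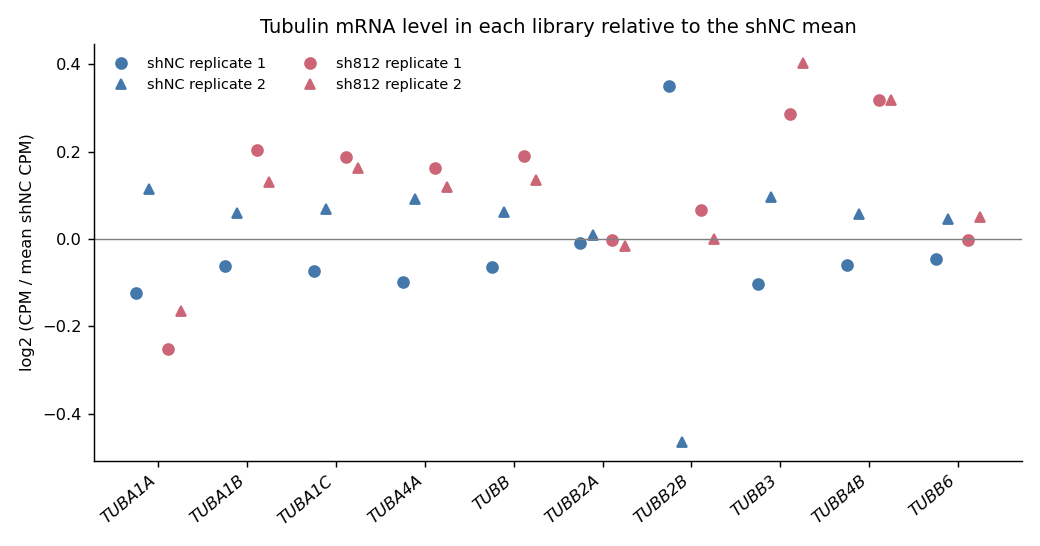
Level of each tubulin mRNA in each library, as log2 of its CPM over the mean CPM of the 2 shNC libraries (y axis), with 1 point per library. Both sh812 points of TUBB4B sit together near 0.32, both TUBA1A points lie below the shNC points, and the shNC points of TUBB2B lie far apart.

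TUBB4B encodes a beta tubulin found in many tissues and prominent in cilia. It lies on chromosome 9 from 137241213 to 137243707 (plus strand, GENCODE 29). Its libraries held 515.9 and 558.8 CPM in shNC and 669.7 and 669.6 CPM in sh812. The sh812 libraries were almost equal and stood well above both controls. The mean went from 537 ± 30.3 to 670 ± 0.0706 CPM (SD, n = 2), 24.6% higher, a log2 change of 0.32 (SE 0.057, 95% interval 0.20 to 0.44, edgeR adjusted p = 0.000687). Removing each library's trend on transcript length and GC content gave a change of 0.23 (edgeR adjusted p = 0.00161). With sh812 replicate 1 left out the edgeR adjusted p was 0.0751, and with replicate 2 left out 0.0647, at a log2 change of 0.32 in both. Over all genes these fits called 1.86% and 2.52%.

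TUBB lies on chromosome 6 from 30720201 to 30725426 (plus strand). It had 1714 and 1872 CPM in shNC and 2046 and 1968 CPM in sh812. The groups did not overlap, and the nearest libraries were shNC replicate 2 and sh812 replicate 2. The log2 fold change of 0.16 (SE 0.056, interval 0.046 to 0.28) missed the threshold (edgeR adjusted p = 0.0654). It passed in 4 of 12 alternatives with all libraries, among them limma-voom (0.16, adjusted p = 0.0284) and removal of the length and GC trend (0.15, edgeR adjusted p = 0.0369). Without shNC replicate 2 it was called, at 0.23 (edgeR adjusted p = 4.88e-08). Without shNC replicate 1 it was 0.099 (edgeR adjusted p = 0.0664), and with either sh812 library left out the edgeR adjusted p was 0.563 or 0.326.

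TUBA1B and TUBA1C lie on chromosome 12, TUBA1B from 49127782 to 49131397 on the minus strand and TUBA1C from 49188736 to 49274603 on the plus strand. TUBA1B had 697 and 758 CPM in shNC and 838 and 797 CPM in sh812, a log2 change of 0.17 (SE 0.058, edgeR adjusted p = 0.0637). TUBA1C had 529.9 and 585 CPM in shNC and 635 and 624 CPM in sh812, a log2 change of 0.18 (SE 0.059, edgeR adjusted p = 0.0559). In neither gene did the groups overlap, and neither was called. With the length and GC trend removed TUBA1C passed (0.17, edgeR adjusted p = 0.0306), while the TUBA1B value was 0.092 (edgeR adjusted p = 0.229). Both passed with DESeq2, at adjusted p-values of 0.0438 for TUBA1C and 0.0493 for TUBA1B. Without shNC replicate 2 both were called, at 0.25 for TUBA1C and 0.24 for TUBA1B. Without shNC replicate 1 neither was, at 0.104 for TUBA1C (edgeR adjusted p = 0.127) and 0.107 for TUBA1B (edgeR adjusted p = 0.0946).

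TUBA4A, an alpha gene whose product is made without the C-terminal tyrosine of other alpha tubulins, lies on chromosome 2 from 219249711 to 219278170. It had 94.1 and 107 CPM in shNC and 113 and 109 CPM in sh812. Its groups did not overlap, and its log2 fold change of 0.14 (SE 0.069, interval -0.00083 to 0.29) was not called (edgeR adjusted p = 0.205). Without shNC replicate 2 the value was 0.25 (edgeR adjusted p = 0.00176), and 0.047 without shNC replicate 1.

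TUBA1A, the alpha gene best known from developing neurons, was the member whose sh812 libraries both lay below the controls. It lies beside TUBA1C on chromosome 12, from 49184796 to 49189324 on the minus strand, and the exons of these genes share 490 bases on opposite strands. It had 92.6 and 109 CPM in shNC and 84.8 and 90.0 CPM in sh812, with sh812 replicate 2 close to shNC replicate 1. Its log2 fold change of -0.21 (SE 0.074, interval -0.36 to -0.052) missed the threshold (edgeR adjusted p = 0.0762). It passed in 7 of 12 alternatives with all libraries, among them library size alone (-0.25, edgeR adjusted p = 0.0324) and removal of the length and GC trend (-0.26, edgeR adjusted p = 0.0101). Leaving out shNC replicate 1 gave -0.32 (edgeR adjusted p = 5.37e-05), and leaving out the other control gave -0.078.

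The ratio of TUBA1A to TUBA1B counts was 0.133 and 0.144 in shNC and 0.101 and 0.113 in sh812, 0.773 of the control ratio. The ratio of TUBB4B to TUBB counts was 0.301 and 0.299 in shNC and 0.327 and 0.340 in sh812. For neither ratio did the groups overlap. For TUBA1A over TUBA1B this followed from the levels above, as TUBA1A lay below its controls in both sh812 libraries and TUBA1B above. In a two-sided exact permutation test each gave p = 0.333, which is the smallest that 2 libraries against 2 allow. The test therefore cannot decide whether either ratio changed. The pair of ratios was chosen after the values of these genes were seen.

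**Figure D2:**
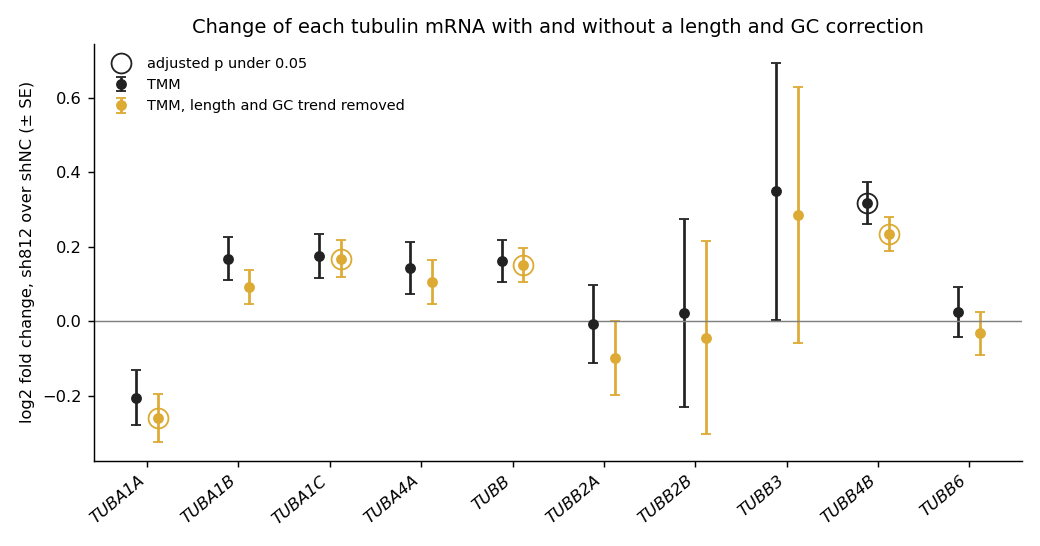
Fitted log2 fold change of each tubulin gene (y axis, ± SE), with TMM scaling alone and with each library's trend on transcript length and GC content removed; rings mark an adjusted p under 0.05. TUBB4B is ringed in both fits, and TUBA1A, TUBA1C and TUBB only in the corrected one.

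The remaining beta genes were not called, with wide intervals for the rare ones. TUBB6, a class V beta tubulin, lies on chromosome 18 from 12307669 to 12344320. It had 89.5 and 95.4 CPM in shNC and 92.3 and 95.8 CPM in sh812, groups that overlapped, a log2 change of 0.025 (interval -0.11 to 0.16, edgeR adjusted p = 0.87). TUBB2A, on chromosome 6 from 3153669 to 3157526, had 19.6 and 19.9 CPM in shNC and 19.7 and 19.5 CPM in sh812. Its libraries were the most alike of the 10 genes, a log2 change of -0.0082 (interval -0.22 to 0.21, edgeR adjusted p = 0.977). Its close copy TUBB2B, on chromosome 6 from 3224261 to 3231730, had 154 and 73 counts in shNC against 117 and 114 in sh812. The controls lay on either side of the knockdown, and the log2 change was 0.50 with replicate 1 of shNC left out and -0.31 with replicate 2 left out. TUBB3, on chromosome 16 from 89921392 to 89938761, had 47 and 45 counts in shNC and 57 and 63 in sh812. The groups did not overlap, but the log2 fold change of 0.35 had an interval from -0.36 to 1.06 (edgeR adjusted p = 0.591).

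At the median of the members, the control libraries differed from each other by nearly as much as the groups, whose median log2 fold change was 0.15. Single members departed from this. The TUBB4B groups lay further apart than its controls, and the reverse held for TUBB2B. In 9 of 10 members shNC replicate 2 lay above shNC replicate 1, by a median of 0.12 on the log2 CPM scale, against 49.5% of all genes tested and a median of -0.0011. In 3 of 10 members sh812 replicate 2 lay above sh812 replicate 1. Without shNC replicate 2 the members' median log2 fold change was 0.23 and 5 were called, against 19.8% of all genes in that fit. Without shNC replicate 1 it was 0.101 and 2 were called, against 11.1% of all genes.

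The members have short transcripts, the longest of each gene spanning 1595 to 3001 bases. Across 12257 genes the Spearman correlation of the group difference with transcript length was -0.34. It was -0.33 for the difference between the shNC replicates and 0.044 for that between the sh812 replicates. The 4917 tested genes in the members' length range had a median log2 fold change of 0.036, and 6.47% of them were called higher and 2.81% lower. With the length trend removed 3 members were called (9.78% of all genes), and with the length and GC trend removed 4 were (10.5% of all genes), at medians of 0.098 and 0.099. Among the 272 genes with a mean of at least 500 CPM, a limit chosen after the values were seen, 41.2% were called. The members above that level were TUBB, TUBA1B, TUBB4B and TUBA1C, of which TUBB4B was called.

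The make-up of each family moved by a few percentage points. Per kb of exon, TUBB held 64.6% and 64.9% of beta tubulin counts in shNC and 63.3% and 62.4% in sh812. TUBB4B held 30.9% and 30.8% in shNC and 33.0% and 33.8% in sh812. TUBA1A held 7.53% and 8.04% of alpha tubulin counts in shNC and 5.84% and 6.41% in sh812. The groups did not overlap for these 3 shares, nor for those of TUBA1C, TUBB2A, TUBB3 and TUBB6. For TUBA4A and TUBB2B they overlapped. The TUBA1B shares nearly met, at 54.2% and 53.5% in shNC and 55.3% and 54.3% in sh812. Shares within a family are tied, since a larger share of any gene lowers the rest. TUBB had a smaller share in sh812 although its mean CPM was 11.9% higher. The TUBB2A and TUBB6 shares were also smaller, although their CPM groups overlapped. The shares that did not overlap are therefore not separate changes of each gene, and no rate over all genes was available for them. These shares were not tested, and they depend on the length used for each gene.

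**Figure D3:**
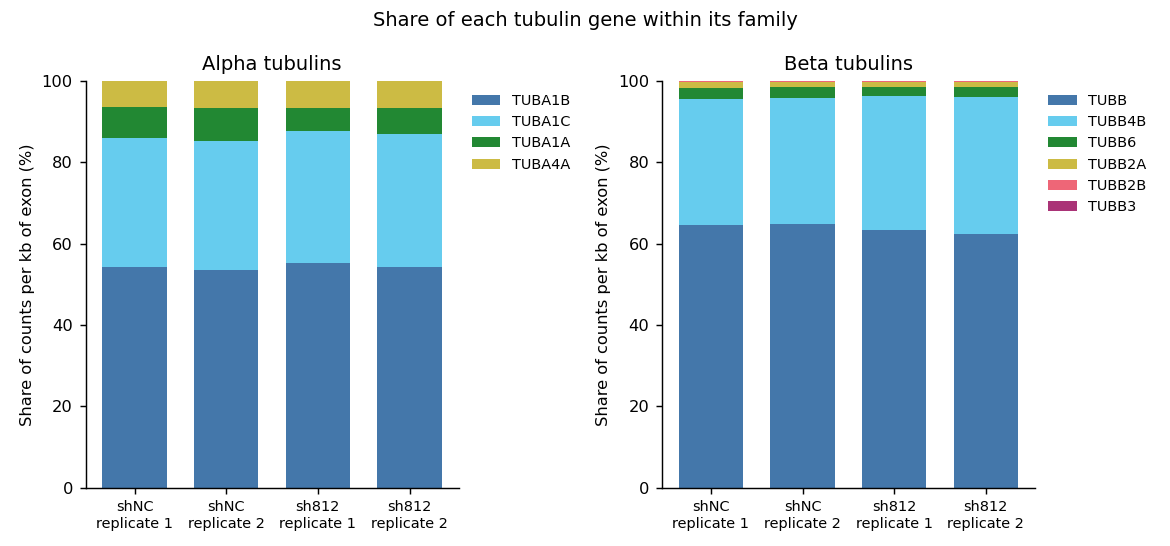
Share of each gene in the alpha (left) and beta (right) tubulin counts per kilobase of exon, with 1 stacked bar per library (y axis, percent). TUBB and TUBB4B make up nearly all beta tubulin counts, and the TUBB4B band is wider in the sh812 bars.

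METTL3 acts on adenosines within a short consensus, of which GGACT is a frequent form. The transcripts were searched for GGACT on the sense strand. At least 1 match was found in 70% of the 10 members and in 90.8% of 13218 tested genes with a coding transcript, with medians of 0.596 and 0.944 matches per kb. TUBB4B had 3 matches, all coding, and these are shown because it was the called gene, with the match in capitals.
TUBB4B match 1: ccggcaccatGGACTccgtgcgctc
TUBB4B match 2: cggagctggtGGACTcggtgctgga
TUBB4B match 3: ctgggtggggGGACTgggtctggga
TUBB match: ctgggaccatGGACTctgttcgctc
TUBB2A match: ctggcaccatGGACTctgtcaggtc
The single coding matches of TUBB and TUBB2A stand in letters that resemble, with differences, those around the first TUBB4B match. Their whole coding sequences were 84.42% and 87.27% identical to that of TUBB4B. TUBA4A and TUBA1C had 4 each and TUBB6 had 3. TUBB3, like TUBB and TUBB2A, had 1. TUBA1A, TUBA1B and TUBB2B had 0 in the transcripts examined. A match is a run of letters, and m6A was not measured in these libraries.

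The genes of tubulin mRNA autoregulation gave no called change in the edgeR test with TMM scaling, which called 10.8% of all genes. TTC5, which reads the nascent tubulin chain, stood at 22.7 ± 0.323 CPM against 22.4 ± 1.32 CPM in sh812 (SD, n = 2), a log2 change of -0.015 (interval -0.22 to 0.19, edgeR adjusted p = 0.951). SCAPER, the adaptor between TTC5 and the deadenylase, had 6.46 ± 0.819 CPM and 5.42 ± 0.313 CPM (SD, n = 2), a log2 change of -0.26 (interval -0.61 to 0.097, edgeR adjusted p = 0.38). The 10 CCR4-NOT subunits had a median of -0.054, with 0 called in edgeR. An unadjusted edgeR p under 0.05 was found for 4 of them, against 24.8% of all genes. DESeq2 and limma-voom also called 0 of the 12 genes of this list, and 1 was called with library size alone or with the length trend removed.

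Of 20 tubulin folding genes tested, 0 were called, against 10.8% of all genes. A fitted change above 0 was found in 15 (median 0.095), against 8232 of all 16802 genes. New tubulin passes from prefoldin to the CCT chaperonin and then to the tubulin cofactors, which form the dimer. All 8 CCT subunits had sh812 libraries above the shNC libraries, against 26.2% of all genes, with log2 fold changes from 0.087 to 0.15. None of the 8 was called in edgeR, and 4 had an unadjusted p under 0.05, against 24.8% of all genes. The 6 prefoldin subunits had a median of 0.11 and the 5 tested cofactor genes one of 0.050, with 0 called. In the whole list of 21 genes both sh812 libraries lay above both controls in 12 and below them in 2. Over all genes these shares were 26.2% and 27.4%. The 2 below were TBCEL (-0.28) and the prefoldin subunit PFDN4 (-0.13). These 2 were named after their values were seen. An unadjusted p under 0.05 in edgeR was found for 7 of the 20 genes tested, against 24.8% of all genes. DESeq2 and limma-voom called 0, and library size alone called 1, as did the length and GC trend removed with the replicate block. Without shNC replicate 2, 12 genes of this list were called, in the fit that called 19.8% of all genes, and with either sh812 library left out, where 1.86% and 2.52% of all genes were called, 0 were.

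Of 25 genes of tubulin modification, 19 were tested, 0 were called higher and 2 lower. Over all genes 5.43% were called higher and 5.42% lower. VASH1, a carboxypeptidase that removes the C-terminal tyrosine of alpha tubulin, had 459 and 365 counts in shNC and 223 and 236 in sh812. It fell from 11.8 ± 0.396 to 6.47 ± 0.171 CPM (SD, n = 2), a log2 change of -0.87 (SE 0.14, edgeR adjusted p = 0.0002). TTLL11, a ligase that extends glutamate chains on tubulin tails, fell from 16.0 ± 2.68 to 11.3 ± 0.404 CPM (SD, n = 2), a log2 change of -0.50 (SE 0.13, edgeR adjusted p = 0.013). Its shNC libraries were uneven, with 680 and 447 counts, and without shNC replicate 1 the change was -0.32 (edgeR adjusted p = 0.159). Leaving out sh812 replicate 1 gave an edgeR adjusted p of 0.186, and leaving out the other sh812 library one of 0.104, while VASH1 kept its call in all 16 alternatives. TTL, which restores the tyrosine, had 133 ± 0.206 and 138 ± 0.873 CPM (SD, n = 2), a log2 change of 0.056 (edgeR adjusted p = 0.635).

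Microtubule nucleation starts from the gamma-tubulin ring complex. TUBG1, its gamma tubulin, had a log2 fold change of 0.092 (interval -0.048 to 0.23, edgeR adjusted p = 0.439). Of 19 genes tested in this list, 1 was called higher and 1 lower, both small ring complex subunits. That is near the shares over all genes, 5.43% and 5.42%. MZT2A rose from 44.6 ± 1.18 to 56.4 ± 4.12 CPM (SD, n = 2), a log2 change of 0.34 (edgeR adjusted p = 0.00686). Removing the length and GC trend gave 0.13 (edgeR adjusted p = 0.279), and its near-identical copy MZT2B makes the count uncertain. MZT1 fell from 67.8 ± 3.97 to 57.2 ± 0.70 CPM (SD, n = 2), a log2 change of -0.24 (edgeR adjusted p = 0.0335). The MZT2A call was lost without sh812 replicate 1 (edgeR adjusted p = 0.256). The MZT1 call was lost without shNC replicate 2 and without either sh812 library, with adjusted p-values from 0.0934 to 0.28 in edgeR.

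Among 24 tested genes that bind, sever or stabilise microtubules, 1 was called higher and 1 lower, near the 5.43% and 5.42% of all genes. STMN1, which sequesters tubulin dimers, had a log2 fold change of 0.14 (interval 0.022 to 0.25) and was not called (edgeR adjusted p = 0.119). MAP2, a microtubule-associated protein of neuronal dendrites, was rare, with 78 and 46 counts in shNC and 102 and 130 in sh812, and rose by 0.89 on the log2 scale (edgeR adjusted p = 0.0371). CLIP1, which tracks growing plus ends, fell by 0.26 on the log2 scale (edgeR adjusted p = 0.0381), from 4133 and 2749 counts in shNC to 2818 and 2987 in sh812. The CLIP1 value was -0.088 without shNC replicate 1 and not called without either sh812 library, MAP2 was not called without shNC replicate 2 or either sh812 library, and neither gene passed with DESeq2, at adjusted p-values of 0.0777 for MAP2 and 0.0671 for CLIP1. MAP2 was not called with library size alone (edgeR adjusted p = 0.0519), and CLIP1 was not with the length trend removed (-0.19, edgeR adjusted p = 0.106) or with the length and GC trend removed (edgeR adjusted p = 0.0914). The 12 other tubulin genes were from the gamma, delta and epsilon families and further alpha and beta isotypes, some of them tissue-specific. Of 8 tested, 0 were called, against 10.8% of all genes. TUBB4A had 34.5 and 37.3 CPM in shNC and 38.9 and 39.3 CPM in sh812 (log2 change 0.12, edgeR adjusted p = 0.393). TUBA3C, a testis alpha tubulin, was at 0 counts in all libraries.

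**Figure D4:**
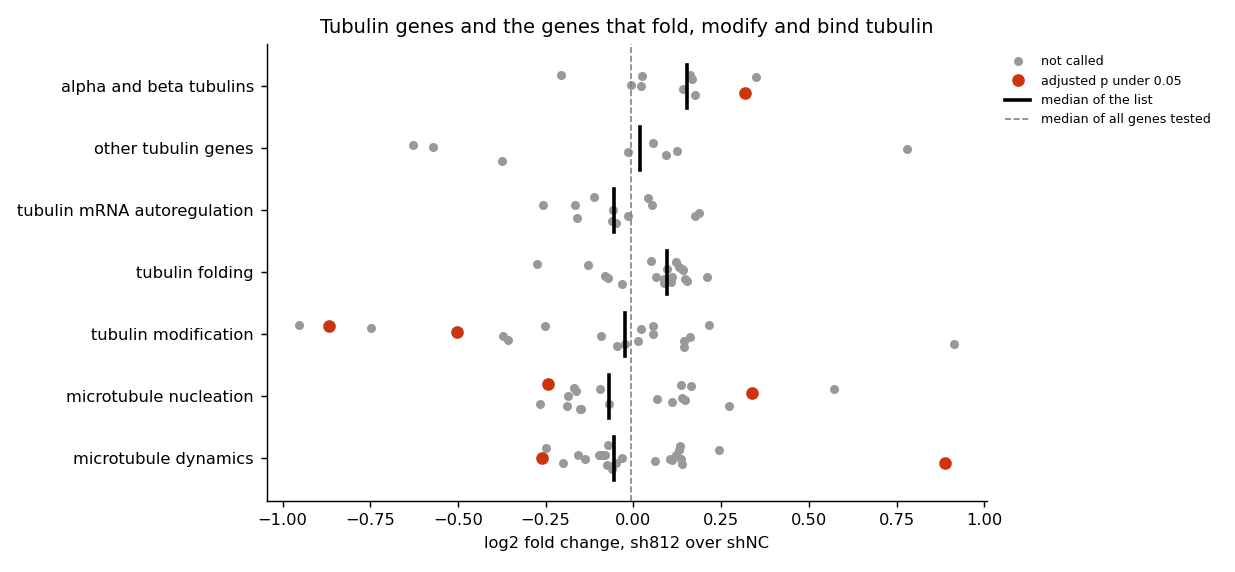
Fitted log2 fold change (x axis) of every tested gene of the tubulin list and the 6 related lists, with called genes in red, each list's median as a bar and the median of all genes as a dashed line. The alpha and beta tubulin bar stands at 0.15 and the folding bar at 0.095, and the called modification genes lie to the left.

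The genes whose pattern over the 4 libraries was nearest to that of TUBB4B were CENPX, C4orf48 and NBL1. The measure was the Euclidean distance between centred log2 CPM profiles, over genes outside the tubulin family with a mean of at least 5 CPM. The distances were 0.0075, 0.014 and 0.017, and 303 of 10826 genes lay within 0.1. The log2 fold changes were 0.32, 0.32 and 0.31, and the edgeR adjusted p was 0.00211, 0.0521 and 0.00586.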

How the data were processed

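The authors deposited raw counts per gene for 4 libraries, whole numbers with a different total in each. The submitters' processing notes name fastp, STAR 2.7.1a, featureCounts, DESeq2 and build hg38, with no roles. The annotation release, the strand setting and the treatment of reads that fit several genes are not given in the sources used here. Per the labels' protocols, libraries were poly(A)-selected, made with dUTP and read as pairs. Between 68.4% and 68.6% of counts from 1 to 50 were even in each library, so many counts may be of both reads of a pair.

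Tests used edgeR 4.0.16 in R 4.3.3 (filterByExpr, TMM, glmQLFit, glmQLFTest, prior count 0.125) on all 4 libraries, with Benjamini-Hochberg adjustment over all 16802 genes and calls at an adjusted p under 0.05. CPM uses TMM-adjusted library sizes. SE comes from the F statistic, and 95% intervals from its degrees of freedom. Replicates of a group differed by more than sampling noise, with a chi-square per gene of 8.43 (shNC) and 4.51 (sh812). Alternatives used DESeq2 1.42.0, limma 3.58.1, other scalings and filters, and lowess offsets of span 0.3 on transcript length and GC content. The fit was tested on simulated data. These were independent draws from the means and dispersions of the same fit, without a length trend, so they do not cover that feature of the libraries. Gene models, lengths and sequences are from GENCODE 29, which may not be the authors' annotation.

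The members and lists were chosen with earlier results of these data known. Named are all members, METTL3, up to 4 called genes of each of 6 related lists with the smallest p-values, TTC5, SCAPER, STMN1 and TUBG1, 3 genes most like the member with the smallest p-value, and the 3 pseudogenes with most counts. TTL, TBCEL, PFDN4 and the ratios stand outside that rule, chosen after their values were seen. The cell type markers, TUBA3C, TUBB4A, MZT2B and the genes that overlap members in position also stand outside it. Of the related gene names, 1 matched no row. Some genes and sequences are not reported here.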

Additional observations from a re-analysis of the deposited data

How the results depend on the processing

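TUBB4B and METTL3 kept their direction and call in each alternative with all 4 libraries. Of the 10 members, 1 was called with TMM, RLE or upper quartile factors, 2 with library size alone, with a mean CPM of at least 1 and with the replicate block, 3 with DESeq2 and with the length trend removed, 4 with limma-voom, with the length and GC trend removed and with both that and the replicate block, and 5 with no low-count filter (DESeq2 gave no adjusted p for TUBB3). Replicate numbers did not pair the libraries (Pearson r of deviations 0.0164 across genes), and under the block TUBA1A was also called (-0.20, adjusted p = 0.0474 in edgeR). The cause of these differences was not tested. Leaving out 1 library, which assumes that the lone library varies like the other group, gave 0 to 5 called members, median changes from 0.101 to 0.23, and 1 to 32 called genes in the 6 other lists against 6. The share of all genes called ran from 1.86% (without sh812 replicate 1) to 19.8% (without shNC replicate 2) in these fits.

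Signs turned for uncalled values near 0. TUBB2B was -0.025 with library size alone, -0.039 with the length trend removed and -0.044 with the length and GC trend removed, and -0.31 to 0.50 with a library left out. TUBB6 was -0.019, -0.028 and -0.032 in the same order, -0.033 with the replicate block and the length and GC trend removed, and -0.022 to 0.076 with a library left out. TTC5 was 0.037 with the length trend, 0.041 with the length and GC trend and 0.041 with the replicate block added, and -0.077 to 0.044 with a library left out. TUBB2A was -0.019 to 0.0055 with a library left out.

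Family shares depended on the length used. In shNC the longest transcript gave 7.25% for TUBA1A, 61.6% for TUBA1B, 61.4% for TUBB and 32.7% for TUBB4B, against 7.79%, 53.8%, 64.8% and 30.9% with all exon bases. No length scaling gave 6.78%, 48.9%, 73.3% and 21.96%. The TUBB4B difference was 2.48 percentage points, 2.60 with the longest transcript, 2.00 unscaled and 2.09 to 2.87 with a library left out. The TUBB difference was -1.94, -1.48 unscaled and -2.42 to -1.47 with a library left out, and signs held for TUBA1A and TUBA1B. The share differences with a library left out were chosen after seeing the data.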
